A study of Mus musculus with 9 samples.

Results

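Early neuroblasts were taken from the single-cell libraries as cells that carried the young-neuron transcript Dcx together with St18, Dlx1as or Trpc4. A cell with 1000 to 20000 unique molecular identifiers (UMIs, each standing for 1 captured transcript), 100 to 6000 genes and under 10% mitochondrial UMIs was a member when it held at least 1 Dcx UMI and at least 3 UMIs of St18, Dlx1as and Trpc4 together. That sum also had to exceed the sum of Tshz2, Chodl and Sln. No more than 1 UMI was allowed for each of 4 exclusion sums, which were Top2a, Mki67, Nusap1 and Cenpf (division), Slc1a2 and Slc1a3 (astroglia), Zic1 and Zic2, and Foxp2 and Sfrp2. The rule was met by 267 of 18390 retained cells. All of these genes chose the cells, so their levels here are a description, and no test of them is reported. Those abundant enough stayed among the genes of the age and genotype fits below.

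Neuroblasts are the migrating young neurons that the neural stem cells of the adult ventricular-subventricular zone (vSVZ) produce by way of dividing transit-amplifying progenitors. Chains of these cells run forward from the ventricle wall, and the survivors join the bulb's inhibitory circuits. Dcx encodes a microtubule-binding protein of migrating young neurons, St18 a zinc-finger transcription factor, Trpc4 a cation channel, and Ccnd2 a D-type cyclin that links growth signals to entry into the cell cycle. Dlx1as is a long noncoding RNA read from the strand opposite to Dlx1, which encodes a homeodomain factor of forebrain interneurons.

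Gene positions are on GRCm38 and come from the GENCODE vM21 annotation by way of the gene IDs. St18 is ENSMUSG00000033740, chromosome 1, 6487231 to 6860940, plus strand. Dlx1as is ENSMUSG00000084946, chromosome 2, 71516454 to 71537891, minus strand, Trpc4 is ENSMUSG00000027748, chromosome 3, 54156035 to 54318471, plus strand, Dcx is ENSMUSG00000031285, chromosome X, 143855842 to 143933311, minus strand, and Ccnd2 is ENSMUSG00000000184, chromosome 6, 127125162 to 127152193, minus strand. Dlx1 (chromosome 2, 71528113 to 71533981, plus strand) lies wholly inside Dlx1as. The strand setting of the counting is not given in the sources used here, so UMIs of Dlx1as and Dlx1 may not be told apart. Below are 2 reference promoter windows (RefSeq, GRCm38.p6, 300 bases around an annotated start), 1 for the gene inside Dlx1as and 1 for the gene that every member had to carry. The Dlx1 window lies within the gene span given above, downstream of the GENCODE start. Another Dcx window, starting at 143933170 and overlapping the one shown, is left out. Capitals mark TAATTA, the letters that homeodomain factors such as the DLX proteins are known to bind, searched on both strands (it is its own reverse complement). These letters stood in 5.29% of 32851 such windows.
Dlx1, chr2:71529195-71529494, plus strand: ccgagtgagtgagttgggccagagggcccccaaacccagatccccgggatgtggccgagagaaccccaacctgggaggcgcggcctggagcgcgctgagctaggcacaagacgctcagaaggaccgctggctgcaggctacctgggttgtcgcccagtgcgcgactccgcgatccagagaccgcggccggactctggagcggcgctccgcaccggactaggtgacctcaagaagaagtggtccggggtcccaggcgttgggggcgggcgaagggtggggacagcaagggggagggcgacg
Dcx, chrX:143933075-143933374, minus strand: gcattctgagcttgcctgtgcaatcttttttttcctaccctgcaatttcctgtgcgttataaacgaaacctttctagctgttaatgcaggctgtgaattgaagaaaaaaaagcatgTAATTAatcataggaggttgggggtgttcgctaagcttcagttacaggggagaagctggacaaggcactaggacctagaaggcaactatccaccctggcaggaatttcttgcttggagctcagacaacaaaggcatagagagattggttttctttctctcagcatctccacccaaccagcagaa
The Dcx window held 1 match and the Dlx1 window held none, which says only that these letters are or are not in these windows.

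The 4 expression libraries came from male C57BL/6 TiCY mice, in which tamoxifen activates Cre in cells that express Tlx (Nr2e1) and so switches on eYFP from the ROSA26 locus in stem cells and their progeny; the stated genotype of every group also carries the Fas allele Fastm1Cgn. WT mice were compared with KO mice that in addition carried the Ifnar1tm1Agt and Ifngr1tmAgt alleles, which target the receptors of type-I and type-II interferon. WT young mice were 16 weeks old with 6 weeks between tamoxifen and collection, and all other mice had 9 weeks: WT old were 80 weeks of age, KO young 16, and KO old between 92 and 105 (their stated ages at tamoxifen plus this interval do not add up exactly to that age). Each group was 1 library from 2 mice, sorted as eYFP+ or GLAST+ cells from the vSVZ and as eYFP+ or eYFP-/PSA-NCAMlow cells from striatum, rostral stream and bulb taken as 1 pool, so that group and 10x reaction cannot be told apart. Members held 691271 (young) and 132355 UMIs (old) in WT and 1056565 (young) and 285878 UMIs (old) in KO, with medians of 6615 (young) and 7472 (old) in WT and 8698.5 (young) and 9186 (old) in KO per cell. In the WT old sum 1 UMI is thus worth 7.56 in UMIs scaled to the same total in every sum (CPM). Among all retained cells 30 of 18360 barcode sequences occurred in more than 1 library, and 1 member, in KO young, was a predicted doublet.

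The label was checked against markers of other cell types, and a small second population appeared among the members. Rbfox3, Syt1, Snap25 and Camk2b, which mark maturing and mature neurons, summed to 21 to 163 UMIs in 12 members, whereas the other 255 held at most 6 and a median of 0. These neuron-marker-rich cells were 1 of 101 members in WT young, 3 of 15 in WT old, 4 of 120 in KO young and 4 of 31 in KO old, and they gave 1.12%, 23.8%, 3.32% and 11.4% of the members' UMIs in that order. Old libraries thus held the larger shares. St18 was seen in 1 of the 12 cells, Dlx1as in 3, and Trpc4 in all 12, so that they met the rule mainly by Trpc4.

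Genes of young neuroblasts were low in these 12 cells. Sox11, a transcription factor of young neurons, was at 149.6 CPM in them and at 4687 in the other 255; Igfbpl1 was at 131 against 1337. Ccnd2 had a UMI in 1 of the 12 and in 255 of 255. Pcp4, a calmodulin-binding peptide, was at 5425 CPM against 5.34, the proenkephalin gene Penk at 608 against 0.971, and Gad1, which makes the transmitter GABA, at 2535 against 104. No eYFP UMI was found in the 12 cells, while 216 of the 255 had one. Slc17a7, a marker of glutamatergic neurons, had no UMI in any member. Sox11, Pcp4 and Penk were chosen after their values were seen. The label of early neuroblasts therefore describes the 255, and results that rest on the 12 are given with and without them.

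**Figure D1:**
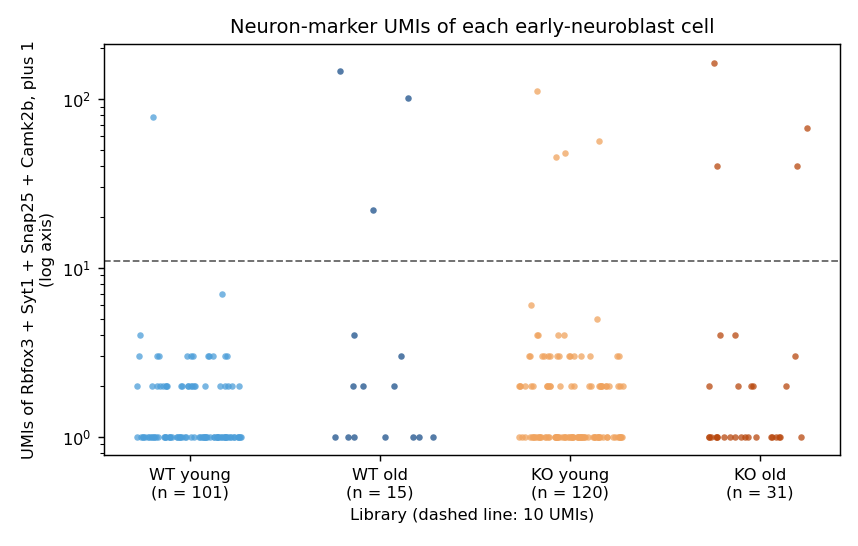
Each point is 1 of the 267 member cells, placed by library (horizontal axis) and by its UMIs of Rbfox3, Syt1, Snap25 and Camk2b plus 1 (vertical log axis); horizontal scatter within a library is for display. The 12 cells above the dashed line at 10 UMIs hold 21 to 163 UMIs, and the 255 below it hold 0 to 6.

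Markers of the remaining cell types were low in the members, apart from astroglial ones. The summed level of 10 microglial markers ran from 7.56 to 15.1 CPM over the 4 libraries, with Cx3cr1, P2ry12, Ctss, Csf1r and Itgam at 0 UMIs. For 8 oligodendrocyte markers the range was 20.99 to 52.9, with Cldn11 at 0, and for 7 endothelial markers 0 to 7.56, with 5 at 0. Oligodendrocyte precursor (6), ependymal (6) and ensheathing glia markers (8) reached at most 7.56, 2.89 and 90.7 CPM, and the 5 erythroid markers had no UMI. The 12 astroglial markers, of which the rule capped Slc1a2 and Slc1a3, summed to 389 to 543 CPM with Aldh1l1 at 0, against 389 to 516 in later neuroblasts. The 9 neuron markers stood out, at 218 (young) and 2214 (old) in WT and 379.5 (young) and 1193 (old) in KO; without the 12 cells they were at 105 (young) and 159 (old) in WT and 125 (young) and 78.97 (old) in KO.

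St18 was found in 203 of the 255 cells, Dlx1as in 174 and Trpc4 in 95. Among them 43 cells reached the sum by St18 alone, 25 by Dlx1as alone and 5 by Trpc4 alone, so most cells held at least 2 of the 3 transcripts. Just inside the threshold, at a sum of 3, stood 126 of the 267 members, 10 of them neuron-marker-rich. Just outside it, 213 cells met every other step with a sum of 2, 15 of them neuron-marker-rich, and 20 further cells reached 3 but not more than their Tshz2, Chodl and Sln sum. The highest sum was 14. Median depth was 6599 UMIs at a sum of 2 and 6735.5 at a sum of 3, and from 7311 to 11768 at sums of 6 to 10, so that higher sums were found in deeper cells. After thinning every retained cell to 1000 UMIs the rule left 1 cell in each library.

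Shares depend on the sort gates and on depth as well as on the number of neuroblasts, and these cannot be told apart. Members made up 101 of 5916 (1.71%, 1.39 to 2.07%) of retained cells in WT young, 15 of 2423 (0.619%, 0.347 to 1.02%) in WT old, 120 of 6638 (1.81%, 1.501 to 2.16%) in KO young and 31 of 3413 (0.908%, 0.618 to 1.29%) in KO old, with exact 95% Clopper-Pearson intervals that cover counting error only. Both old libraries lay below both young ones. Among Dcx+ cells that passed the exclusions the shares were 101 of 1848 (5.47%, 4.47 to 6.602%), 15 of 233 (6.44%, 3.65 to 10.4%), 120 of 1322 (9.08%, 7.58 to 10.8%) and 31 of 361 (8.59%, 5.91 to 11.97%) in the same order. On this second base the intervals of the young and old library of each genotype overlapped, and the KO young share lay above the WT young one, whose cells were also the shallowest. With 1 library per group neither difference was tested.

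To place these cells along the lineage, their summed expression was set beside that of later neuroblasts (478 cells with at least 3 UMIs of Tshz2, Chodl and Sln and the same exclusions) and of dividing cells (642 cells with at least 4 UMIs of Top2a, Mki67, Nusap1 and Cenpf). A gene was called different between early and later neuroblasts when the CPM ratio, with 5 CPM added to both, passed 2-fold the same way in all 4 libraries and the higher class averaged at least 20 CPM. Both classes were chosen on genes of these same cells, so this is a description without a test, and rule genes were left out. With all members, 31 of 6356 genes were higher in early cells (0.488%) and 19 were higher in later cells (0.299%). Among the 12 leading genes of the first direction were Pcp4, Plppr4, Arpp21, Camk2b and Homer2 next to Vim, Insm1, E130114P18Rik, Sox9, Sox5, Tead2 and Epha3. Pcp4 was at 127, 1579, 92.8 and 686 CPM in the members and at 1.46, 0, 7.83 and 7.897 without the 12 neuron-marker-rich cells, in the order young WT, old WT, young KO and old KO, which is kept below. With and without the 12 cells, Plppr4 ranged over 11.6 to 189 and 0 to 3.95 CPM, Arpp21 over 24.6 to 189 and 0 to 6.85, and Camk2b over 26.04 to 287 and 0 to 6.85. Without neuron-marker-rich cells of either class 21 of 6105 genes were higher in early cells (0.344%) and 30 in later cells (0.491%), of which 14 and 14 were shared with the calls on all members. The values that follow are those without the 12 cells. In the WT old sum of early cells 1 UMI is then worth 9.91 CPM, so low values there rest on few UMIs.

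Early neuroblasts held several transcripts that are known from stem and progenitor cells. Vim (ENSMUSG00000026728, chromosome 2, 13573927 to 13582826, plus strand), an intermediate filament of radial glia and progenitors, was at 987 (young) and 486 CPM (old) in WT and 878 (young) and 1034 CPM (old) in KO in early cells. In later cells it was at 146, 31.3, 94.2 and 128 in the same order, so every library separated the classes (log2 ratio 2.72 to 3.76), and dividing cells were at 799 to 949. WT old stood below the other 3 libraries in Vim in early as in later cells. Sox9, a transcription factor of neural stem cells and glia, was at 205 (young) and 178 CPM (old) in WT and 285 (young) and 288 CPM (old) in KO against 43.5 to 80.3 in later cells and 126 to 255 in dividing cells. Dbi, a diazepam-binding peptide and lipid carrier, was at 439 (young) and 159 CPM (old) in WT and 431 (young) and 359 CPM (old) in KO against 50.1 to 82.5 in later cells. Mdk, a secreted heparin-binding growth factor, was at 568 (young) and 288 CPM (old) in WT and 476 (young) and 525 CPM (old) in KO, between 100.1 to 124 in later and 689 to 1063 in dividing cells. Tead2, a transcription factor of the Hippo pathway, was at 29.7 to 78.97 against 5.18 to 9.49 in later cells.

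Among regulators of neuronal commitment, Insm1 (ENSMUSG00000068154, chromosome 2, 146221921 to 146225020, plus strand), a zinc-finger factor of neurogenic progenitors, was at 313 (young) and 337 CPM (old) in WT and 329.9 (young) and 284 CPM (old) in KO. It lay between 431 to 641 in dividing cells and 37.5 to 77.7 in later cells in each of the 4 libraries. Sox5, a transcription factor of neuronal differentiation, was instead highest in the early cells, at 171 (young) and 238 CPM (old) in WT and 195 (young) and 182 CPM (old) in KO, with 44.2 to 91.7 in dividing and 39.4 to 68.6 in later cells. A pair of replication genes lay in between as well. Mcm6, a subunit of the replicative helicase, was at 49.6 to 117 in early, 6.26 to 40.2 in later and 219 to 257 in dividing cells, and the primase gene Prim1 was at 39.7 to 75.02, 12.5 to 29.02 and 154 to 184. Timeless, which acts at replication forks, was at 19.7 to 39.2 against 3.76 to 9.49. Gpd1, a glycerol-3-phosphate dehydrogenase, was at 26.3 to 109 against 0 to 7.25, Chn1, a Rac-regulating protein of axon growth, at 47.97 to 77.5 against 7.52 to 20.7, Cib1, a calcium-binding protein, at 11.8 to 29.7 against 0 to 6.22, and the transcript E130114P18Rik at 51.3 to 92.2 against 0 to 16.1.

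Ccnd2, named with the label but not used by the rule, was at 4108 (young) and 2176 CPM (old) in WT and 3595 (young) and 3872 CPM (old) in KO in all members and at 4155 (young) and 2855 CPM (old) in WT and 3711 (young) and 4371 CPM (old) in KO without the 12 cells. Later cells held 1845, 1459.8, 1726 and 2141 and dividing cells 2626, 2614, 2697 and 2931 in the same order. Early cells without the 12 were thus above both neighbouring classes in 4 of 4 libraries, whereas with all members WT old was below its dividing cells. The gap in WT old was small, 12 early cells at 2855 against 20 dividing cells at 2614 CPM (95% counting interval 2412 to 2829). The early over later log2 ratio of Ccnd2 was 0.57 to 1.15 with all members and 0.84 to 1.17 without the 12, which did not pass 2-fold in every library. In single cells of the 255 the quartiles were 17, 28 and 43 UMIs, and none lacked it. Among progenitor genes, the growth factor receptor Egfr was at 7.31, 9.91, 17.6 and 23.7 CPM against 24.1 to 55.2 in dividing cells.

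**Figure D2:**
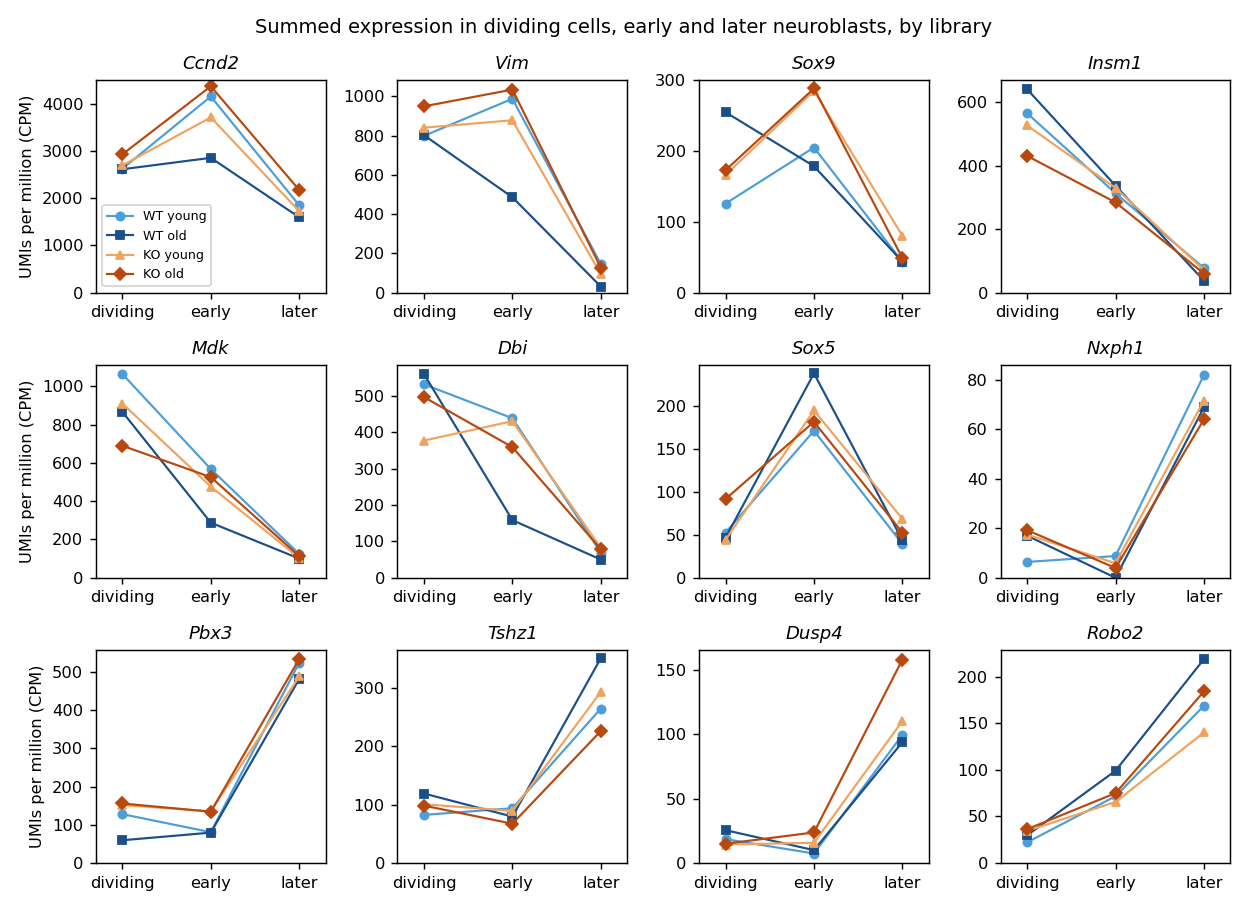
CPM (vertical axis, from 0) of 12 genes in dividing cells, early neuroblasts and later neuroblasts (horizontal axis), 1 line per library, without neuron-marker-rich cells in the early and later classes. Ccnd2 and Sox5 peak in the early class in all 4 libraries, Insm1 and Mdk decline from dividing to later cells, and Nxph1, Pbx3, Tshz1 and Dusp4 are highest in later cells. The Ccnd2 gap between early and dividing cells is small in WT old.

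Genes higher in later neuroblasts were low in early cells in every library. Nxph1, a secreted ligand of neurexins, was at 8.78 (young) and 0 CPM (old) in WT and 5.87 (young) and 3.95 CPM (old) in KO in early and 81.9, 68.8, 71.6 and 63.96 in later cells (log2 ratio -3.88 to -2.66). Dusp4, a phosphatase of MAP kinases, was at 7.31 to 23.7 against 93.9 to 158. The homeodomain partner Pbx3, a factor of olfactory bulb interneurons, was at 80.5 (young) and 79.3 CPM (old) in WT and 135 (young) and 134 CPM (old) in KO in early and 524, 482, 489 and 534 in later cells, while dividing cells held 59.4 to 156. Tshz1, a zinc-finger factor needed by olfactory bulb neurons, was at 67.1 to 93.6 against 226 to 350.5, and the guidance receptor Robo2, which reads Slit proteins, at 65.6 to 99.1 against 140.2 to 219. Adarb2, an RNA-editing family member of interneurons, was at 0 to 7.897 against 43.1 to 87.6, the adhesion molecule Tenm4 at 0 to 5.87 against 28.5 to 50.1, and Ntng1, a netrin-related membrane protein, at 0 to 2.94 against 11.3 to 43.5. The synaptic vesicle gene Syt1 changed sides with the 12 cells in 3 of 4 libraries. With all members it was at 44.8, 824, 134 and 559.7 in early and 70.2, 252, 63.5 and 155 in later cells, and without neuron-marker-rich cells, which Syt1 itself helped to define, at 16.1, 19.8, 17.6 and 27.6 in early and 60.1, 75.1, 63.5 and 128 in later cells. Luzp2 (log2 ratio -3.44 to -2.39), Ubash3b (-3.48 to -2.00), Rgs8 (-2.25 to -1.45) and Gm27032 (-4.004 to -2.17) complete the 12 leading genes in this direction.

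**Figure D3:**
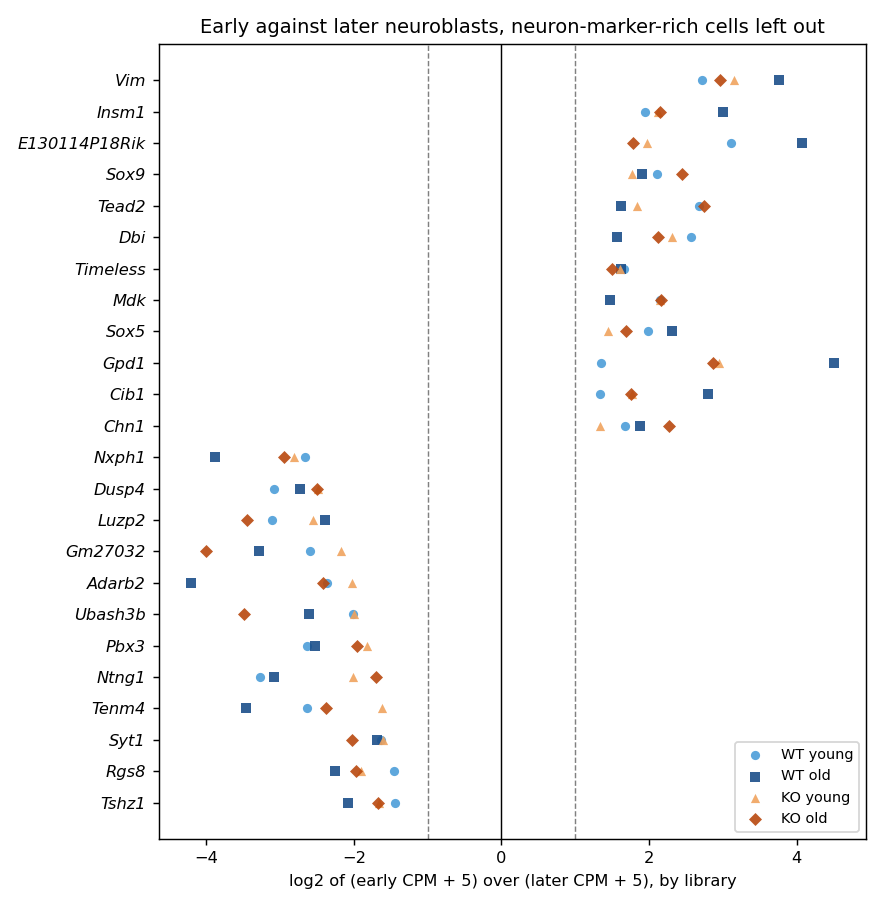
Log2 ratio of early over later CPM, with 5 CPM added to both (horizontal axis), for the 12 leading genes of each direction (vertical axis), 1 symbol per library and dashed lines at 2-fold, without neuron-marker-rich cells. All 4 symbols of each gene lie beyond the 2-fold line on the same side, which is how these genes were chosen.

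Gene groups were described by counts and by the median of the mean log2 ratio, which was 0.03 over all 6105 genes without the 12 cells; of all genes 0.344% were called higher in early and 0.491% higher in later cells. Replication genes had a median of 1.34, with 2 of 15 called higher in early cells (Mcm6 and Prim1). For transit-amplifying progenitor genes it was 0.67, with 1 of 9 called (Sox9). D cyclins and cell cycle exit genes, at 0.44, had none of 13 called; Ccnd2 had the highest CPM, and the antiproliferative Btg1 and the kinase Cdk4 followed. Interneuron transcription factors stood at 0.18, with Insm1 higher and Pbx3 and Tshz1 lower of 25. Dlx2, a homeodomain factor of interneuron progenitors, was at 859 to 1021 CPM in early and 769.8 to 873 in later cells, and Dlx1 at 43.9 to 107 and 77.4 to 106, with no 2-fold difference. Core neuroblast genes, at -0.15, had none of 19 called; the most abundant were Stmn1, Sox11 and Sox4, and Sox11 was at 4380.1 to 4924 against 3812 to 4236. Migration and guidance genes, at -0.37, had 1 of 28 called (Robo2, lower). Of maturation genes 22 passed the CPM minimum with all members and 12 without neuron-marker-rich cells, so that their medians cannot be set side by side; Syt1, by which those cells were left out, was the call among the 12. Immediate early and stress genes, led in CPM by Hsp90aa1, Jund and Jun, were at 0.02, with none of 10 called.

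The lineage reporter eYFP was not used by the rule and was used to ask how many of these cells descend from stem cells labelled by tamoxifen, though eYFP+ cells were also enriched by the sort. An eYFP UMI was found in 85 of 101 (84.2%, 75.6 to 90.7%) of the members of WT young, 3 of 15 (20%, 4.33 to 48.1%) of WT old, 105 of 120 (87.5%, 80.2 to 92.8%) of KO young and 23 of 31 (74.2%, 55.4 to 88.1%) of KO old. WT old stood apart from the other 3 libraries. In later neuroblasts the shares were 170 of 202 (84.2%, 78.4 to 88.9%), 18 of 25 (72%, 50.6 to 87.9%), 156 of 208 (75%, 68.5 to 80.7%) and 34 of 43 (79.1%, 63.96 to 89.96%) in the same order. In microglia-type cells, which should lack the reporter, they were 6.56%, 0 of 29 cells, 3.51% and 0 of 31 cells, at median depths of 4590.5 to 6404 UMIs. Early minus later was -11.1 ± 28.2 percentage points (SD, n = 4 libraries), a difference within the spread between libraries. The share was higher in early cells in 1 of 4 libraries, and WT young was an exact tie (difference 0). The exact permutation p (by sign flips, two-sided) was 0.75, adjusted 0.875 over 2 tests with that of the hashtags below. Flipping the sign of a tie changes nothing, so only the other 3 libraries count and this p cannot fall below 0.25. After thinning each cell to 1000 UMIs, since early cells were deeper than later ones, the WT old shares were 2 of 15 (13.3%, 1.66 to 40.5%) in early and 7 of 25 (28%, 12.1 to 49.4%) in later cells and the mean difference was 1.34 points. Unthinned and without WT old it was 2.54 points. Without neuron-marker-rich cells the share in WT old was 3 of 12 (25%, 5.49 to 57.2%), still below 18 of 24 (75%, 53.3 to 90.2%) in its later cells, and the mean difference was -6.86 points. As a level, eYFP was at 746, 159, 630.3 and 511 CPM in early cells, 596, 315, 418 and 327 in later cells and 1019, 539, 890.4 and 832 in dividing cells.

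**Figure D4:**
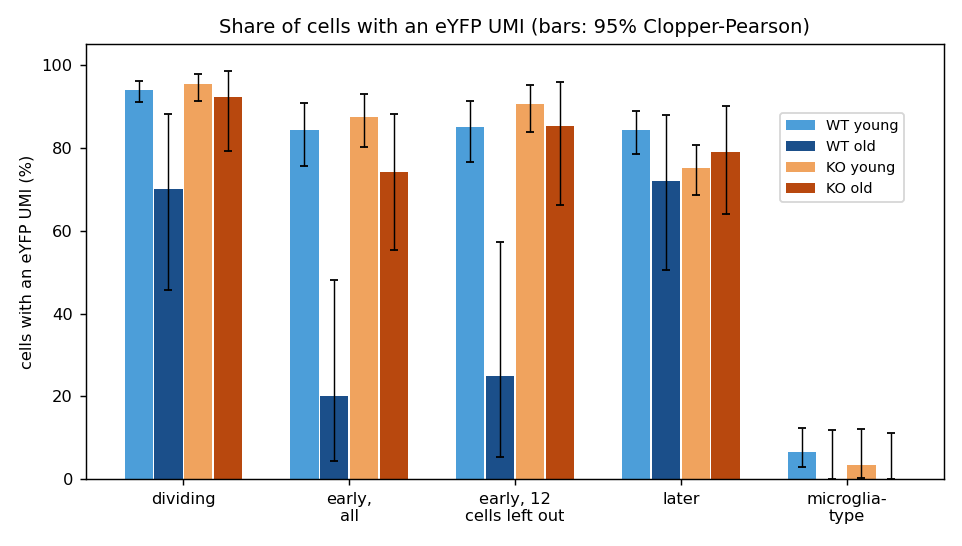
Percent of cells with an eYFP UMI (vertical axis, from 0) in dividing cells, early neuroblasts with and without the 12 neuron-marker-rich cells, later neuroblasts and microglia-type cells (horizontal axis); colours are libraries and error bars are 95% Clopper-Pearson intervals. The WT old early neuroblasts lie at 20% and 25%, below the other libraries of that class.

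Hashtags named the tissue of origin of few members. In young WT, old WT, young KO and old KO, 6.93, 26.7, 8.33 and 38.7% of members had a call. Of all retained cells 21.8, 60.2, 20.7 and 53.2% had one, so members were called less often in every library. Together 33 of 267 members (12.4%) could be called. Of these, 5 of 7 (71.4%, 29.04 to 96.3%) in WT young, 2 of 4 (50%, 6.76 to 93.2%) in WT old, 8 of 10 (80%, 44.4 to 97.5%) in KO young and 8 of 12 (66.7%, 34.9 to 90.1%) in KO old carried a vSVZ hashtag. In later neuroblasts the counts were 12 of 18 (66.7%, 40.99 to 86.7%), 1 of 3 (33.3%, 0.8404 to 90.6%), 11 of 16 (68.8%, 41.3 to 88.98%) and 13 of 14 (92.9%, 66.1 to 99.8%). The intervals overlapped in every library, and the mean difference was 1.62 ± 19.2 points (SD, n = 4, higher in early in 3 of 4; exact p = 0.875, adjusted 0.875). Over 4 libraries this test cannot give a p below 0.125.

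Interferon receptors were counted in the members to check the genotype. Ifngr1, the ligand-binding chain of the type-II receptor, had 8, 2, 1 and 0 UMIs in that order of libraries, or 11.6 (4.996 to 22.8), 15.1 (1.83 to 54.6), 0.946 (0.02396 to 5.27) CPM in the first 3, with exact 95% Poisson intervals for counting error. Both KO libraries were below both WT ones in value. Ifnar1, a chain of the type-I receptor, had 9, 2, 10 and 0 UMIs, so KO young cells still held Ifnar1 transcripts. For both genes, 0 UMIs in KO old allow up to 12.9 CPM by the same interval. A floor of 3 UMIs of that sum is 10.5 CPM. These counts are too low to read a genotype from these cells alone. The untargeted Ifnar2 was at 40.5, 22.7, 44.5 and 41.98 CPM, and Ifngr2 at 26.04, 52.9, 34.1 and 13.99.

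The study scored the interferon response as the sum of log-transformed CPM over 300 genes raised by interferon-β in cultured stem cells, of which 289 were found by symbol. Early neuroblasts scored 85.9 (young) and 104 (old) in WT and 95.3 (young) and 103 (old) in KO. After thinning to 1000 UMIs the means were 22.2, 30.3, 23.5 and 26.2 in the same order, and 22.1, 25.4, 22.6 and 25.3 without the 12 neuron-marker-rich cells. Later neuroblasts scored 23.97, 22.8, 22.6 and 25.7 and dividing cells 20.99, 22.04, 22.2 and 22.6 after thinning, whereas astroglia-type cells (at least 5 UMIs of Slc1a2 and Slc1a3, no Dcx) scored 52.01, 60.6, 51.2 and 55.2. Every thinned early value was thus below every astroglial one. As a sum of CPM the list took 3738, 4759.9, 3728 and 4040.2 in all members, highest in WT old, and 3673, 3688, 3604 and 3510.1 without the 12 cells. The 48 genes found of a shorter core list summed to 108, 144, 121 and 171 CPM, from 75, 19, 128 and 49 UMIs, against 962, 1871, 723 and 1003 in astroglia-type cells; its most abundant members were Ifi27, H2-D1 and Ifit2. With 1 library per group no score was tested.

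Age was tested with edgeR's quasi-likelihood test on UMIs summed per library, the 2 old against the 2 young libraries with genotype as a term, which leaves 1 residual degree of freedom. Each library pools 2 mice, so the p-values carry no spread between mice. They rest mostly on a spread shared by all genes, not on each gene's own spread between the 4 reactions. With all members 163 of 6237 genes (2.61%) were higher and 4 (0.0641%) lower in old libraries (638 at an unadjusted p under 0.05). Leaving out the 12 neuron-marker-rich cells, an alternative chosen after seeing the data, left 0 of 5749 genes (233 unadjusted), and DESeq2 on all members called 23 higher and 0 lower. The fit took the spread of nearly all genes from a common estimate, and many single calls changed with the setting. The weight of that estimate, in degrees of freedom (median over genes), was infinite with all members and 29.5 without the predicted doublet. A call lost without the doublet can thus go with a nearly unchanged value, and what moved each call was not tested. Of 35 genes examined with an age call, 23 remained called without the 1 predicted doublet, 8 with DESeq2, 23 without WT young, 25 without WT old, 28 without KO young and 31 without KO old.

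Most of the leading genes higher with age are known from neurons, and none was called without the 12 cells. Snhg11, a noncoding RNA of neurons, was at 28.9 (young) and 1179 CPM (old) in WT and 133 (young) and 626 CPM (old) in KO in all members, 3.42 ± 0.26 on the log2 scale (SE, edgeR adjusted p = 1.60e-35), and at 0, 9.91, 7.83 and 7.897 without the 12. Its call was lost at a rule sum of 2 or more (edgeR adjusted p = 0.721), without the predicted doublet (0.608), without the genotype term (0.352), without WT old and with DESeq2 (DESeq2 adjusted p = 0.275). The value was 3.53 without the doublet and stayed at 2.18 or above in every alternative run for it. Pcp4 rose by 3.22 ± 0.24 (adjusted p = 1.60e-35) and Syt1 by 2.91 ± 0.26 (adjusted p = 2.56e-26). The calcium pumps Atp2b1 and Atp2b2 rose by 2.42 ± 0.24 and 3.24 ± 0.34, and Snap25, of the vesicle fusion machinery, by 2.18 ± 0.25. Pcp4l1, Prune2, Ano3, Syne1 and Nrip3 rose by 2.78 to 4.13. Without the 12 cells Pcp4 was at 0 to 7.897 CPM and Atp2b1 at 63.2 to 129; Syt1 and Snap25 helped to define those cells, so their lower levels without them say nothing further. Of the 163 genes called higher, 42 were still abundant enough to be tested, and their median log2 change went from 1.60 to 0.21.

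Maturation genes were among the calls, with 14 of 21 tested higher in old libraries beside 2.61% of all genes, among them Camk2b (2.66 ± 0.34), Gria2 (1.79 ± 0.24), Grin2b (1.76 ± 0.30), Scg2 (2.83 ± 0.37), Camk2a (3.62 ± 0.65), Gabra2 (2.43 ± 0.52) and Atp1b1 (1.26 ± 0.22), which encode kinases, receptor subunits and synaptic or pump proteins of neurons. Without the 12 cells 10 of these genes passed the low-count filter and none was called, so that the others were tested only through the cells in which they were high, and the count of 14 is a description of these libraries. Of the neuron markers 4 of 5 tested were called higher (Syt1, Snap25, Camk2b and Rbfox3). Gad1 was the call of 20 core neuroblast genes (1.63 ± 0.25), and Epha5 (1.82 ± 0.31), Sema3c (3.02 ± 0.58) and Dab1 (1.77 ± 0.49) those of 28 migration and guidance genes. Dab1 lost its call without the doublet (adjusted p = 0.0507), without the genotype term (0.05298) and without WT young, WT old or KO young (0.0992 to 0.504). Sema3c lost it without the doublet (0.5998), WT old (0.1901) or WT young (0.05301), and its value went to 7.93 without KO young. Of 49 genes tested from the 300-gene interferon list 4 were called, Pacsin1 (2.60 ± 0.52), Myo16 (3.13 ± 0.66), Stk32c (3.39 ± 0.89) and Hap1 (2.21 ± 0.66), and Pacsin1, Myo16 and Hap1 are known for roles in neurons. Myo16 had no UMI in the 255 other cells. None of 3 core interferon genes and neither of 2 receptors tested were called. The metallothionein Mt1, from the astroglial markers, rose by 1.29 ± 0.36 (edgeR adjusted p = 0.0129) and by 0.75 ± 0.38 without the 12 cells. Its call was lost without the doublet (edgeR adjusted p = 0.0507), without the genotype term (0.101) and with no low-count filter (0.0887). It was also lost with DESeq2 and without WT young or WT old. At 16 replication and 11 progenitor genes no call was made.

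The 4 genes called lower in old libraries were still below 0 without the 12 cells, but none was called there. The eYFP transcript fell by 1.08 ± 0.24 on the log2 scale (adjusted p = 0.000697) and was at -0.80 ± 0.28 without them. WT old decided much of this value, which was -0.44 without that library (adjusted p = 0.486) and -2.20 without KO old; the call was also lost without the doublet (0.345), without WT young (0.299) and with DESeq2. Pax6, a transcription factor of dorsal stem cells and of periglomerular interneurons, was at 67.99 (young) and 22.7 CPM (old) in WT and 28.4 (young) and 0 CPM (old) in KO, with 47, 3, 30 and 0 UMIs. Pax6 had a UMI in 11 of 101, 2 of 15, 15 of 120 and 0 of 31 cells, so few cells carried it. In WT the share of cells with Pax6 was 10.9% (young) and 13.3% (old), not lower with age. Its fitted value was -2.53 ± 0.75 (edgeR adjusted p = 0.0293) and -2.76 ± 0.83 without the 12 cells. It moved from -7.97 without WT old, which leaves 0 UMIs in the remaining old library, to -1.10 without KO old. The call was lost without KO old, without the doublet (edgeR adjusted p = 0.109), without the genotype term (0.259) and with DESeq2. Crip2, a LIM-domain protein, was at 343, 174, 289.6 and 164 CPM (-0.92 ± 0.27, then -0.75 ± 0.25), and Smarcc1, a subunit of a chromatin remodelling complex, at 353, 136, 362 and 259 (-0.86 ± 0.26, then -0.68 ± 0.25). In both genes the 2 old libraries lay below the 2 young ones. Crip2 stayed between -1.07 and -0.84 with 1 library left out but lost its call without WT young, KO young or KO old. Smarcc1 was at -0.48 without WT old and -1.48 without KO old, and at -0.41 with a rule sum of 2 or more. Ccnd2 was not called (-0.43 ± 0.21). The genes of the rule are described without a test: Dcx was at 623, 703, 678 and 647 CPM, St18 at 298, 227, 268 and 252, Dlx1as at 191, 83.1, 160.0 and 115 and Trpc4 at 98.4, 136, 86.1 and 69.96. Of the genes of later cells Tshz2 was at 15.9, 30.2, 17.04 and 17.5 CPM, Chodl at 27.5, 68, 35.02 and 13.99 and Sln at 5.79, 0, 3.79 and 0.

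**Figure D5:**
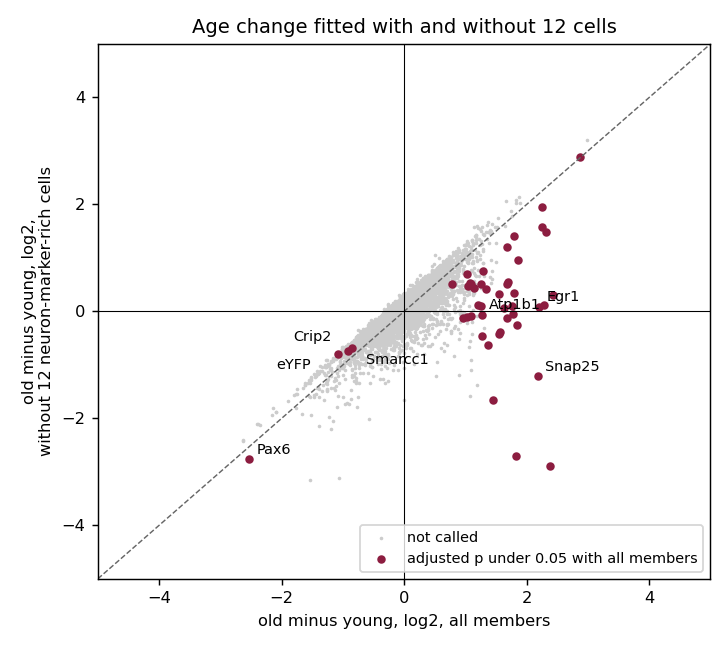
Fitted change with age (old minus young, log2) with all members (horizontal axis) and without the 12 neuron-marker-rich cells (vertical axis), for genes tested in both; red points are the 46 of 167 called genes that remained testable. eYFP, Crip2, Smarcc1 and Pax6 lie near the diagonal, while most genes called higher lie below it, 15 of 42 below 0.

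Genotype, with age as a term in the same fit, gave 1 gene higher (0.016%) and 1 lower (0.016%) in KO libraries with all members (201 at an unadjusted p under 0.05), none without the 12 cells (167 unadjusted) and none with DESeq2 (6 unadjusted). Egr1, an immediate early gene that neuronal activity and tissue dissociation are known to raise, was at 65.1 (young) and 861 CPM (old) in WT and 61.5 (young) and 76.96 CPM (old) in KO, -1.68 ± 0.29 for KO minus WT (adjusted p = 3.74e-05). The WT old library alone stood apart, and without the 12 cells Egr1 was at 65.8, 79.3, 55.8 and 55.3. Gm42418, which overlaps ribosomal RNA sequence, was at 1709.9 (young) and 3173 CPM (old) in WT and 5699.6 (young) and 3844 CPM (old) in KO (1.05 ± 0.22, adjusted p = 0.00384), highest in KO young. It was at 0.69 without KO young and 0.67 without WT young, and both genotype calls were lost without the predicted doublet (adjusted p = 0.999 for each), without KO young and without KO old. Over all genes the median was 0.01, over 16 replication genes 0.12 and over 49 genes of the 300-gene interferon list 0.07, with no gene of either list called. Ccnd2, at 0.32 ± 0.21, was not past the threshold.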

How the data were processed

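Single-cell 3′ libraries were filtered for index hopping, quantified by the authors with kallisto and bustools, and deposited as UMI counts per barcode and gene in 1 unfiltered matrix, with hashtag counts per barcode alongside; the submitters' processing notes name GRCm38 and Scanpy 1.6.0, and whether unspliced UMIs were counted is not given in the sources used here. Both kinds of counts were used as deposited. Retained cells numbered 5916, 2423, 6638 and 3413, with 36479623, 18656256, 51748484 and 25893239 UMIs, in young WT, old WT, young KO and old KO. Member cells and gene lists were chosen with earlier results of these data known, and later, dividing, astroglia-type and microglia-type cells by UMI sums set after the files were seen (microglia-type: at least 5 UMIs of Cx3cr1, P2ry12, C1qa and C1qb, no Dcx). UMIs were summed per library and fitted in R 4.3.3 by the robust quasi-likelihood method of edgeR 4.0.16 (low genes removed by filterByExpr, TMM scaling, terms for genotype and age, Benjamini-Hochberg adjusted p under 0.05); DESeq2 1.42.0 was an alternative. Standard errors were the log2 change over the square root of F. Fitted changes are relative to most genes. The fit was tested on simulated counts, drawn with 1 common spread for all genes, without a mixture of cells, and changed only in more abundant genes. Of 100 genes changed by 2 on the log2 scale 68% were recovered for age with all members and 80% without neuron-marker-rich cells. Of 100 changed by 1, 11% and 30% were recovered. Over both sizes of change 0 of 79 and 8 of 118 calls were false, over 6071 and 5681 genes. As real counts differ from this setting, these shares do not show how reliable or complete the calls above are. Hashtags were called with a multinomial mixture of 5 components, and doublets predicted with Scrublet in scanpy 1.11.5 and kept. Per direction, the text names the 12 genes with the largest smallest-of-4 ratio (early against later) or up to 12 with the smallest adjusted p, every called list gene up to 10 per list, the receptors and the marker genes; some of these genes are not reported here.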

Additional observations from a re-analysis of the deposited data

Results flagged for a closer look

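Interferon receptors, marker genes of early and later neuroblasts, eYFP and genes named from the age and genotype fits were examined here, not all genes. In a pair of them the old over young CPM ratio in all members pointed opposite ways in WT and KO beyond counting error. That error treats every UMI as independent and leaves out the spread between cells, of which WT old had 15. The intervals below are thus too narrow for a difference between groups of cells. With 1 library per group the difference between genotypes was not tested. Ccnd2 had a ratio of 0.5296 in WT (95% counting interval 0.468 to 0.598) and 1.08 in KO (1.01 to 1.15). In WT old, 3 of 15 members were neuron-marker-rich, and without such cells Ccnd2 was at 4155 (young) and 2855 CPM (old) in WT and 3711 (young) and 4371 CPM (old) in KO, still lowest in WT old. Gm42418 had ratios of 1.86 in WT (1.66 to 2.08) and 0.674 in KO (0.632 to 0.719), and without those cells it was at 1698.5 (young) and 2191 CPM (old) in WT and 5191 (young) and 2389 CPM (old) in KO. Outside the main measurement, the matrix also counts a NeoR_KanR transgene transcript. It was found in the members at 33.3 (young) and 68 CPM (old) in WT and 50.2 (young) and 52.5 CPM (old) in KO. Each value was above the floor of 3 UMIs. A control without the transgene was not analysed here. What moved these values was not tested.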

How the results depend on the processing

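For age, the genes called in old libraries, 163 higher and 4 lower with all members, numbered 319 higher and 60 lower at a rule sum of 2 or more, 5 higher and 0 lower at 4 or more, 5 higher and 0 lower after thinning, 23 higher and 0 lower with DESeq2, 126 higher and 1 lower without predicted doublets, 109 higher and 1 lower without the genotype term, 133 higher and 3 lower with no low-count filter, 0 higher and 0 lower without neuron-marker-rich cells, and 70 to 212 higher and 0 to 65 lower with 1 library left out (lowest without WT young, 70 higher and 0 lower; 88 higher and 8 lower without WT old; 111 higher and 3 lower without KO young; 212 higher and 65 lower without KO old), where the lone library is assumed to vary like the others. For genotype, 1 higher and 1 lower in KO, the counts were 32 higher and 5 lower at 2 or more, 5 higher and 0 lower at 4 or more, 1 higher and 0 lower after thinning, 0 and 0 with DESeq2, without doublets, without the age term, with no filter and without neuron-marker-rich cells, and 0 to 46 higher and 0 to 66 lower with 1 library left out (0 without KO young or KO old, 46 higher and 66 lower without WT young, 40 higher and 12 lower without WT old). Signs turned for Snap25, which helped to define the cells left out (-1.21), Epha5 (-2.71) and Atp1b1 (-0.0639) without neuron-marker-rich cells, for Mt1 at 4 or more (-0.37), and for Egr1 between genotypes at 4 or more (0.78) and without WT old, the range with 1 library left out being -3.62 to 0.028. Early against later calls, 31 higher in early and 19 in later cells, were 53 and 17 at sums of 2 or more, 8 and 8 with 20 CPM added, 21 and 30 without neuron-marker-rich cells, and 41 to 86 and 22 to 38 with 1 library left out (a call then needs 3 libraries); at 4 or more there were 26 and 24, sharing 13 and 11 genes with the calls above, without doublets 32 and 17 (31 and 17 shared), and with no CPM minimum 37 and 19 (31 and 19 shared). Shares of retained cells in young WT, old WT, young KO and old KO were 3.45, 1.28, 2.88 and 1.58% at 2 or more, 0.811, 0.3302, 1.05 and 0.439% at 4 or more and 0.0169, 0.0413, 0.0151 and 0.0293% after thinning. The eYFP difference turned to 1.34 points after thinning and ran from -18.96 to 2.54 with 1 library left out, positive without WT old. The hashtag difference ran from -3.39 to 10.9 with 1 library left out, negative without WT old (-3.39) or KO young (-1.59). With a hashtag posterior of at least 0.9 it was 45 points, over WT young and WT old only. These held 1 of 2 early against 3 of 5 later cells in WT young and 1 of 1 against 0 of 1 in WT old. The 2 libraries pointed in opposite directions, and the value rests on these few cells. The interferon score, old minus young, was 17.7 in WT and 8.12 in KO, 8.18 and 2.63 after thinning, 1.58 and 2.23 for the core list, and 9.695 and 8.28 without neuron-marker-rich cells. The core values are without thinning, and 47 genes of the core list are also in the 300-gene list. After thinning, the core score was 0.691, 0, 0.702 and 1.14 in young WT, old WT, young KO and old KO. WT old then lay below WT young. The alternatives without neuron-marker-rich cells and with 20 CPM were chosen after seeing the data, and apart from those cells and from fewer cells or genes the cause of each change was not tested. Sums per mouse could not be made, since hashtags named at most 12 members of a library and 20 per mouse were required. No paired analysis was possible because the groups compared, of 1 library each, share no mouse; early and later cells were compared within each library.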

Other observations

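Genes outside the naming rule, chosen after their values were seen and described without a test, added to the picture without neuron-marker-rich cells. Among calls higher in early neuroblasts were the chromatin genes Baz1a (9.91 to 33.6 CPM in early and 0 to 11.4 in later cells) and Arid5b (86.2 to 149 and 26.9 to 41.4), the histone chaperone gene Anp32b (208 to 358 and 81.4 to 129) and the mitochondrial carrier gene Slc25a13 (17.6 to 35.5 and 0 to 6.26). The lowest early value of Baz1a, 9.91 CPM, was 1 UMI in WT old. Higher in later cells were the noncoding RNA Meg3 (23.4 to 69.4 CPM in early and 103 to 144 in later cells), the membrane anchor Ank3 (5.85 to 19.7 and 26.9 to 87.6) and the transcriptional repressor Runx1t1 (64.4 to 178 and 341 to 418). Neuron-marker-rich cells also stood outside the rule, with 15 of 213 cells at a sum of 2 and 63 of 341 at a sum of 1.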
